A study of Homo sapiens with 5 samples.

Results

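The 39 genes described here encode the enzymes that load tRNAs with amino acids, together with the proteins that hold some of these enzymes together. They were chosen by symbol: 20 cytosolic aminoacyl-tRNA synthetases or their subunits, 16 mitochondrial synthetases and the 3 scaffold proteins AIMP1, AIMP2 and EEF1E1. Of these symbols, 36 had a row among the 13638 rows of the count table, and VARS, FARS2 and LARS2 were not analysed here. CARS had 2 rows, which gives 37 rows, of which 35 passed the filter on low counts. The rows left out were VARS2 (transcript ENST00000428577), with 1 count in all 5 libraries together, and the second row of CARS (ENST00000633248), also with 1 count.

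Per the labels' protocols the libraries hold ribosome footprints, the stretches of mRNA that ribosomes shield from nuclease. The labels' molecule field reads polyA RNA instead; the counts are taken as footprints here on the strength of the protocol, and all values rest on that reading. They came from HAP1 cells, a human line of near-haploid chromosome content derived from chronic myeloid leukaemia. Wild-type cells gave 2 libraries and ZCCHC4 knockout cells gave 3. According to the series title, ZCCHC4 methylates 28S ribosomal RNA to N6-methyladenosine. The labels give no treatment, and they do not say how the knockout was made, how many clones it rests on, or whether the libraries of a genotype came from separate cultures. The p-values below therefore rest on library-to-library spread, which may be technical only. A gene's footprints follow both its mRNA level and the ribosomes on it, and the contributions of the mRNA level and of translation were not separated. In bulk lysates, fewer cells of a kind and less RNA per cell cannot be told apart.

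An aminoacyl-tRNA synthetase joins an amino acid to its tRNA, and cells keep separate sets for the cytosol and for mitochondria. GARS and KARS are exceptions whose genes serve both compartments. In animals, EPRS, IARS, LARS, MARS, QARS, RARS, KARS and DARS assemble with AIMP1, AIMP2 and EEF1E1 into the multi-synthetase complex, while the other cytosolic enzymes work outside it. Many cytosolic synthetase genes are targets of ATF4, the transcription factor that is made when amino acids run short and the kinase GCN2 (gene EIF2AK4) senses uncharged tRNA.

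The wild-type libraries held 5302160 and 4887380 counts and the knockout libraries 16940732 to 31557573, so depth and genotype cannot be told apart. A single count was worth 0.172 and 0.187 CPM in wild type and at most 0.0619 CPM in the knockout, where CPM is the TMM-scaled counts-per-million value. Between the wild-type libraries the chi-square per degree of freedom over genes was 1.14, where sampling noise alone gives about 1. It was 2.97 between knockout replicates 1 and 3, and 27.7 and 24.6 between knockout replicate 2 and those. The same relative spread gives a larger value in deeper libraries, so the wild-type value cannot be compared directly with the knockout values. ZCCHC4 itself stood at 16.0 and 13.3 CPM in wild type against 3.85, 3.41 and 4.98 CPM in the knockout (log2 fold change -1.82 ± 0.20 SE, adjusted p = 7.27e-05), so its footprints were lower but present. BCR and ABL1, whose fusion marks the leukaemia of origin, were at 4.27 to 7.28 and 0.557 to 1.55 CPM. Among 5 blood lineage genes, CD34 had at most 2 counts in a library and the others had no row. Of 11205 genes tested, 60.0% passed edgeR's quasi-likelihood test at an adjusted p under 0.05, 29.8% lower and 30.2% higher in the knockout, with a median log2 fold change of 0.02. Scaled by library totals alone, 4564 genes were lower, 2391 were higher and that median was -0.20, so small rises among the members are relative to the scaling.

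The cytosolic enzymes were lower in the knockout libraries as a rule, and the mitochondrial enzymes were more often higher. Falls were called in 14 of the 19 cytosolic rows tested, rises in 4 and neither in 1, against 29.8% falls and 30.2% rises over all genes. The cytosolic median log2 fold change was -0.92, or 1.89-fold lower. Among the 13 mitochondrial rows tested there were 8 rises, 2 falls and 3 without a call, and their median was 0.40, or 1.32-fold higher. The scaffold proteins moved apart, with AIMP2 rising, AIMP1 falling and EEF1E1 not passing. The same counts were obtained without knockout replicate 2. At least a 2-fold fall was seen in 9 of the 19 cytosolic rows, against 13.1% of all genes, and at least a 2-fold rise in 1 of the 13 mitochondrial rows, against 10.0% of all genes. Every knockout library lay under both wild-type libraries in 15 cytosolic rows, as in 37.9% of all genes, and above them in 8 mitochondrial rows, as in 38.5% of all genes. Over all 35 member rows the knockout lay below in 20 and above in 13, and 76.4% of all genes showed such a separation in either direction.

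**Figure D1:**
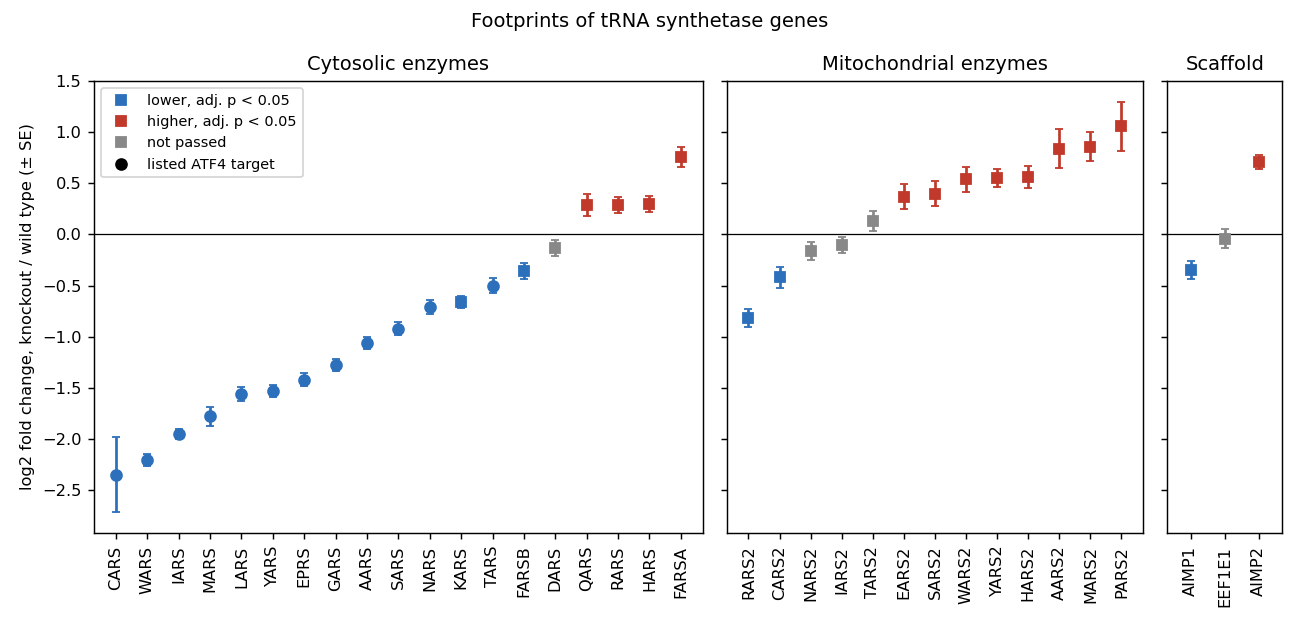
Log2 fold change of footprints, knockout over wild type, with its SE (vertical axis) for the 35 member rows tested, grouped by class and sorted within each class. Colour gives the edgeR call at an adjusted p under 0.05 and circles mark genes commonly listed as ATF4 targets; the circles lie between CARS at -2.35 and TARS at -0.50.

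Summed over the class, cytosolic synthetases took a much smaller share of all footprints in the knockout. Their counts made up 1.84% and 1.85% of the wild-type libraries (exact 95% binomial intervals 1.83 to 1.85 and 1.84 to 1.86) and 0.718%, 0.721% and 0.709% of the knockout libraries, where the intervals ran from 0.706 to 0.725. The mitochondrial enzymes together took 0.0737% and 0.0729% of wild-type counts against 0.0652%, 0.0691% and 0.0644% of knockout counts, and the scaffold proteins 0.0534% and 0.0538% against 0.0524%, 0.0521% and 0.0525%. These are shares of raw counts and are not TMM-scaled, and the intervals cover counting error only. On the TMM-scaled sums the cytosolic class was 2.21-fold lower in the knockout, and the mitochondrial and scaffold sums were at 1.05 and 1.14 times wild type. The fall in the mitochondrial share and the rise in its scaled sum differ in direction because of the scaling.

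**Figure D2:**
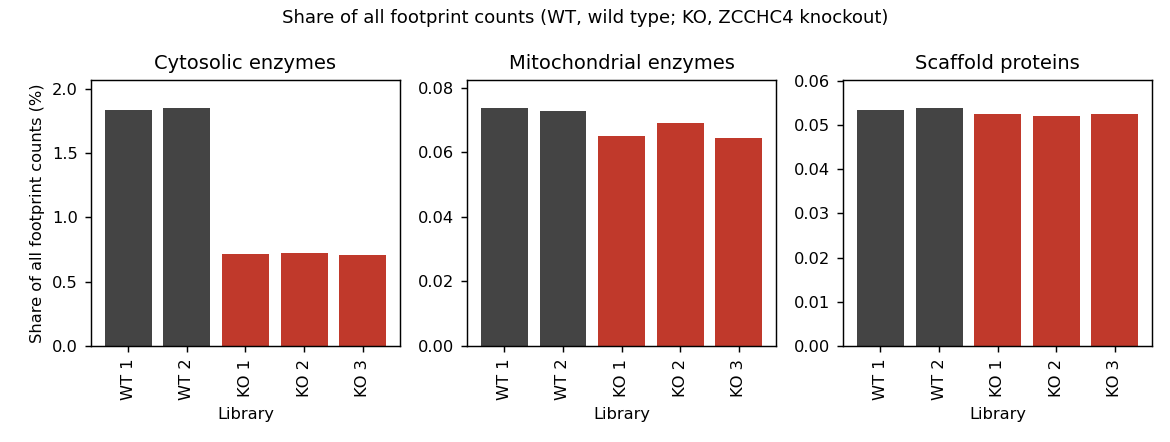
Share of all footprint counts (vertical axis, percent, from 0 and with its own scale in each panel) taken by the cytosolic enzymes, the mitochondrial enzymes and the scaffold proteins in each of the 5 libraries (WT, wild type; KO, knockout). The cytosolic bars stand at 1.84 and 1.85% in wild type and between 0.709 and 0.721% in the knockout, while the other panels show small differences.

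Leaving aside the thinly counted CARS, the deepest falls were in WARS and IARS. WARS, tryptophanyl-tRNA synthetase (ENST00000355338, GRCh38 chromosome 14, 100333818 to 100376805, minus strand, 11 exons), stood at 1134 and 1120 CPM in wild type against 249, 238 and 245 CPM in the knockout. All knockout libraries lay far below both wild-type libraries, a 4.62-fold fall (log2 fold change -2.21 ± 0.06 SE, adjusted p = 4.27e-08). IARS, isoleucyl-tRNA synthetase (ENST00000375643, GRCh38 chromosome 9, 92210207 to 92293700, minus strand, 34 exons), was the member with the most footprints in wild type, at 2793 and 2831 CPM. It fell to 733, 742 and 709.7 CPM, 3.86-fold (-1.95 ± 0.05, adjusted p = 4.27e-08). In both genes the libraries within a genotype differed by far less than the genotypes did.

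MARS, LARS, YARS, EPRS, GARS and AARS also fell at least 2-fold, with no overlap between the genotypes in any of them. MARS, which charges methionine for initiation as well as elongation, went from 1090 and 1103 CPM to 295, 363 and 300.0 CPM (-1.78 ± 0.09). LARS, the leucine enzyme, went from 1387 and 1373 CPM to 489.7, 440.2 and 478 CPM (-1.56 ± 0.07). Knockout replicate 2 was the highest knockout library for MARS and the lowest for LARS. YARS, the tyrosine enzyme, was at 1132 and 1153 CPM against 394, 399 and 395 CPM (-1.53 ± 0.06). EPRS, a fused protein that charges both glutamate and proline, was at 1956 and 1947 CPM against 742, 712 and 729.9 CPM (-1.42 ± 0.06). AARS, the alanine enzyme, was at 1299 and 1275 CPM against 592, 654 and 608 CPM (-1.06 ± 0.06). The adjusted p of these genes lay between 1.84e-07 for YARS and 2.36e-06 for AARS.

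The enzymes that serve both compartments moved with the cytosolic ones. GARS, the glycine enzyme, fell from 1617 and 1615 CPM to 688, 648 and 666 CPM (-1.28 ± 0.06, adjusted p = 4.90e-07). KARS, the lysine enzyme and a subunit of the complex, fell from 531 and 543 CPM to 341, 349 and 333 CPM (-0.66 ± 0.06, adjusted p = 3.01e-05). Without these genes the cytosolic class held 12 falls and 4 rises among 17 rows, with the median again at -0.92.

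Smaller falls were seen in SARS (-0.92 ± 0.06), NARS (-0.71 ± 0.07) and TARS (-0.50 ± 0.07), the enzymes for serine, asparagine and threonine. FARSB, the beta subunit of the phenylalanine enzyme, was at -0.36 ± 0.08 (adjusted p = 0.00317). DARS, the aspartate enzyme, had lower values in all 3 knockout libraries but did not pass (-0.13 ± 0.08, adjusted p = 0.179); scaled by library totals it was called lower (-0.34, adjusted p = 0.00254). CARS, the cysteine enzyme, had the largest fold in the class and the least evidence. Its counts were 25 and 27 in wild type against 25, 23 and 17 in the knockout, or 4.31 and 5.04 CPM against 0.916, 1.42 and 0.576 CPM (-2.35 ± 0.37, adjusted p = 5.77e-04). Per kilobase of coding sequence CARS stood at 2.08 CPM in wild type, while the next lowest cytosolic enzyme, HARS, stood at 80.6 CPM. How reads that map to several places were counted is not given in the sources used here, and the level of CARS is uncertain.

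The cytosolic enzymes that rose were FARSA, HARS, RARS and QARS, each with all knockout libraries above both wild-type libraries. FARSA, the alpha subunit of the phenylalanine enzyme, stood at 143 and 135 CPM in wild type against 214, 265 and 229.5 CPM in the knockout (0.76 ± 0.10, adjusted p = 2.19e-04). The subunits FARSA and FARSB form 1 enzyme, and they changed in opposite directions. HARS, the histidine enzyme, was at 121 and 126 CPM against 149, 154 and 154 CPM (0.30 ± 0.08, adjusted p = 0.00720). RARS, the arginine enzyme, was at 273 and 261 CPM against 343, 300.0 and 338 CPM (0.29 ± 0.08, adjusted p = 0.0120). QARS, the glutamine enzyme, was at 211 and 221 CPM against 239.6, 305 and 247 CPM (0.29 ± 0.11, adjusted p = 0.0466). The last 3 rises were small and lost their call without wild-type replicate 1 (adjusted p = 0.0973 for HARS, 0.0731 for RARS and 0.250 for QARS) and without wild-type replicate 2 (0.0538, 0.132 and 0.155). Scaled by library totals they were not called either, at 0.09 for HARS, 0.07 for RARS and 0.07 for QARS on the log2 scale.

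The cytosolic enzymes were also divided by a list of commonly named ATF4 targets. All 12 cytosolic enzymes on that list (AARS, CARS, EPRS, GARS, IARS, LARS, MARS, NARS, SARS, TARS, WARS and YARS) fell, by 2.78-fold in the median (log2 -1.48, range -2.35 to -0.50). Outside the list 7 enzymes were tested: KARS and FARSB fell, 4 rose and DARS was not called, and their median was 0.29. Over all genes 29.8% fell and 30.2% rose. Scaled by library totals, 3 enzymes outside the list were called lower and 1 higher, so most of these rises depend on the scaling. The list comes from general knowledge of the pathway and was written down with some results of these data known, so the split is a description. Summed over the list, footprints were 2.61-fold lower in the knockout after TMM scaling, and over the enzymes outside it 1.04-fold lower. ATF4 had no row and was not analysed here. EIF2AK4 stood at 74.0 and 72.8 CPM in wild type against 72.1, 66.0 and 68.7 CPM in the knockout (-0.09 ± 0.09, adjusted p = 0.395).

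Promoter sequences were searched for TGATGNAA, the core of the C/EBP-ATF response element to which ATF4 binds, because the enzymes on that list moved together. RefSeq windows on GRCh38.p14, running from 250 bases before to 50 after each annotated start, were matched for 33 of the 39 members. AARS2, DARS, LARS, VARS, VARS2 and YARS had no window. On either strand, the motif was found in 7 of 16 cytosolic genes, in 1 of 14 mitochondrial genes and in none of the 3 scaffold genes, against 2.68% of 9246 tested genes with a window and 4.46% of all genes in the promoter set. The 7 cytosolic genes with a match were all on the ATF4 list and all fell. The windows below are shown because they carry those matches, with the motif in capitals, and each is written 5′ to 3′ on the strand named.
IARS, chr9:92293692-92293721, plus strand: gcgcacggaggTGATGCAAcgcgctgaaaa
CARS, chr11:3057407-3057436, plus strand: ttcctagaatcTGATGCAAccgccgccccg
MARS, chr12:57488053-57488082, minus strand: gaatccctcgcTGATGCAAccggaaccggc
AARS, chr16:70289675-70289704, plus strand: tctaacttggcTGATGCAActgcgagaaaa
NARS, chr18:57621804-57621833, minus strand: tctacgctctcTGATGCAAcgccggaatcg
TARS, chr5:33440956-33440985, minus strand: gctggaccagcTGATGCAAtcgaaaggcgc
GARS, chr7:30594834-30594863, minus strand: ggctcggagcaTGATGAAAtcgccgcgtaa
YARS2, chr12:32756076-32756105, minus strand: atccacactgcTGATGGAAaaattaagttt

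Of these matches, 6 read TGATGCAA, and the one in GARS and the one in YARS2 differ at the base that the motif leaves free. The matches in CARS, MARS and TARS lay within 4 bases of an annotated start, that in IARS 13 bases before it, that in NARS 14 bases after it and that in GARS 33 bases before it. The match of AARS lay 187 bases and that of YARS2, a mitochondrial enzyme that rose, 197 bases before the start. All these distances are to RefSeq starts. By the GENCODE positions of the transcripts counted here, the windows of CARS, MARS, TARS, GARS and NARS lie inside the transcript. The 7 cytosolic genes with a match had a median log2 fold change of -1.28, and the 9 without a match had a median of -0.36, of which 5 fell and 4 rose. The match was in 7 of the 10 listed cytosolic genes with a window and in 0 of the 6 others. The split by match thus overlaps the split by list. The search was made because the listed genes moved together, so its counts are a description and no independent support. WARS (-2.21), with the largest fall among well-counted members, EPRS (-1.42) and SARS (-0.92) are listed genes without a match. They fell as well, within the range of the 7 genes with a match (-2.35 to -0.50). LARS (-1.56) and YARS (-1.53), also listed, had no window. Whether a match goes with the depth of the fall was not tested. A match is a run of letters in a window and no measure of binding.

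Levels were next compared per kilobase of coding sequence, since longer messages hold more ribosomes. In wild type the 8 enzymes of the multi-synthetase complex were spread over an 8.00-fold range of mean levels, and in the knockout over a 1.75-fold range. IARS was the highest in wild type, at 738 and 748 CPM per kilobase, and QARS the lowest, at 90.7 and 95.1 CPM per kilobase. In the knockout libraries IARS stood at 194, 196 and 187 and QARS at 103, 131 and 106 CPM per kilobase. The highest enzyme exceeded the lowest 8.14-fold and 7.87-fold in the wild-type libraries and 2.04-fold, 1.57-fold and 1.85-fold in the knockout libraries. The range also narrowed among the 10 enzymes outside the complex other than CARS, from 10.2-fold and 9.63-fold in the wild-type libraries to 3.52-fold, 3.07-fold and 3.28-fold in the knockout libraries. With the thinly counted CARS included, the range of mean levels outside the complex was 384-fold in wild type and 755-fold in the knockout. The ratios within a library do not depend on the scaling between libraries.

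The order of the complex's enzymes also changed. In wild type it ran IARS, EPRS, MARS, LARS, KARS, DARS, RARS and QARS, from 743 to 92.9 CPM per kilobase in the mean. EPRS, MARS and LARS were close, at 430.2, 406 and 391 CPM per kilobase, with little spread between the libraries. In the knockout it ran DARS, IARS, KARS, RARS, EPRS, LARS, MARS and QARS, from 198 to 113 CPM per kilobase. There several neighbours lay within each other's spread: DARS ranged from 186 to 210.4 and IARS from 187 to 196, and RARS from 152 to 173 and EPRS from 157 to 164 CPM per kilobase. LARS, MARS and QARS overlapped between 103 and 139. Other neighbours did not overlap: IARS lay above KARS (178 to 186), KARS above RARS, and EPRS above LARS (125 to 139). Falls were called in 5 of these 8 enzymes, rises in 2 and neither in DARS (median log2 fold change -1.04). Outside the complex 11 enzymes were tested, with 9 falls and 2 rises (median -0.92). Over all genes the shares were 29.8% falls and 30.2% rises, so the rises in the complex, at 25.0%, were near that background.

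**Figure D3:**
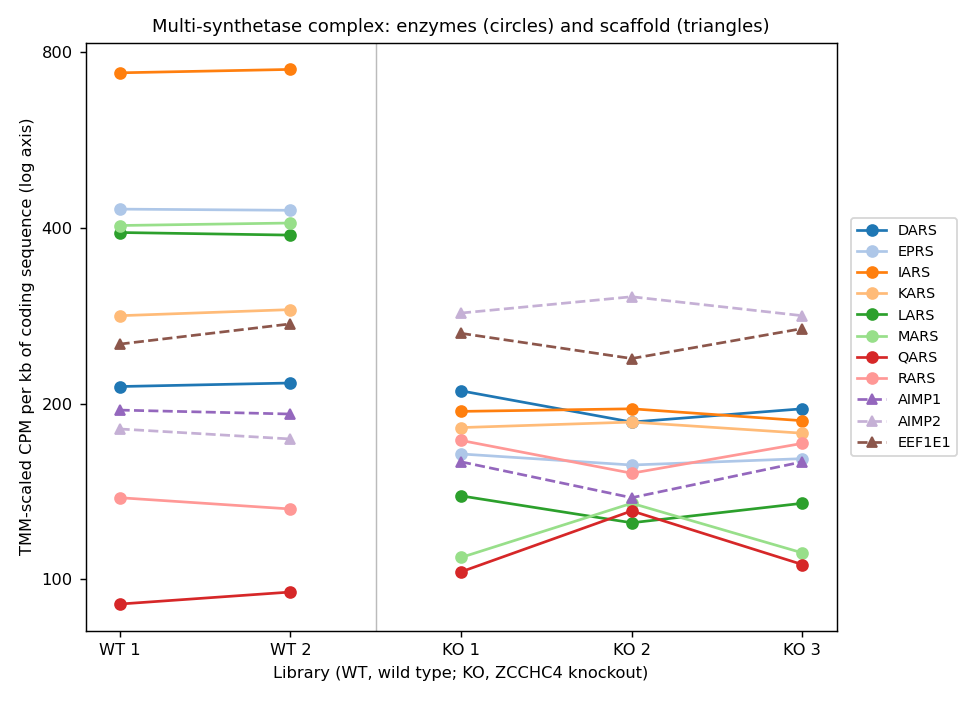
Footprint level per kilobase of coding sequence (vertical axis, TMM-scaled CPM, log axis) of the 8 enzymes and 3 scaffold proteins of the multi-synthetase complex in each library; lines only join the values of a gene within a genotype. The enzymes span 90.7 to 748 in wild type and 103 to 210.4 in the knockout.

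The 3 scaffold proteins gave 1 rise, 1 fall and 1 value that did not pass. AIMP2, which links several enzymes of the complex (GRCh38 chromosome 7, 6009245 to 6023834, plus strand), stood at 174 and 167 CPM in wild type against 274, 293 and 272 CPM in the knockout. All knockout libraries were above both wild-type libraries, a 1.64-fold rise (0.71 ± 0.07, adjusted p = 5.04e-05). AIMP1, which binds tRNA and the arginine and glutamine enzymes, was at 183 and 179.8 CPM against 148, 129.6 and 149 CPM (-0.35 ± 0.09, adjusted p = 0.00731). Leaving out either wild-type library ended that call (adjusted p = 0.0768 without replicate 1 and 0.0604 without replicate 2). EEF1E1, also called AIMP3, which docks the methionine enzyme, was at 132 and 143 CPM against 138, 125 and 140.3 CPM, and the genotypes overlapped (-0.04 ± 0.09, adjusted p = 0.744). Per kilobase of coding sequence AIMP2 went from 178 to 291 CPM in the mean. In each knockout library it stood above all 8 enzymes of the complex, of which 5 had fallen. EEF1E1, which did not pass, also stood above them there, at 264, 239 and 269 CPM per kilobase. The highest enzyme in those libraries was at 210.4, 196 and 196 CPM per kilobase.

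Catalytic class gave a further division. Synthetases fall into class I and class II by the fold of their catalytic domain, with EPRS holding 1 domain of each. Of 8 tested class I enzymes, 6 fell and 2 rose, with a median of -1.67, and all 6 falls were at least 2-fold. Of 10 class II enzymes, 7 fell and 2 rose, with a median of -0.58, and 2 of the falls were at least 2-fold. Over all genes 29.8% fell, 30.2% rose and 13.1% fell at least 2-fold. The ATF4 list holds 6 of these class I and 5 of these class II enzymes, so the classes differ in that respect too.

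Mitochondrial enzymes changed less and started from lower levels. Their mean levels in wild type ran from 2.15 CPM per kilobase for PARS2 to 69.0 for IARS2, with a median of 25.7, against a median of 406 for the 19 cytosolic rows. The largest rise was in PARS2, the proline enzyme (ENST00000371279, GRCh38 chromosome 1, 54756898 to 54764514, minus strand, 2 exons), from 2.59 and 3.55 CPM to 5.94, 7.12 and 6.13 CPM (1.06 ± 0.24, adjusted p = 0.00420). It rested on 15 and 19 wild-type counts and lost its call without wild-type replicate 1 (0.84, adjusted p = 0.0670). MARS2, the methionine enzyme, rose from 28.3 and 29.1 CPM to 49.0, 60.7 and 47.4 CPM (0.86 ± 0.14, adjusted p = 5.81e-04). WARS2, the tryptophan enzyme, rose from 16.4 and 17.4 CPM to 22.8, 25.3 and 25.4 CPM (0.54 ± 0.12, adjusted p = 0.00459), a call lost without wild-type replicate 1 (0.0574).

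The other rises were in AARS2 (0.84 ± 0.19), HARS2 (0.56 ± 0.11), YARS2 (0.55 ± 0.09), SARS2 (0.40 ± 0.12) and EARS2 (0.37 ± 0.12). EARS2 and SARS2 lost their calls without wild-type replicate 1 (adjusted p = 0.0659 and 0.0779) and replicate 2 (0.198 and 0.153), and AARS2 without wild-type replicate 2 (0.0526). With library totals only, 5 mitochondrial enzymes were called higher and 4 lower. HARS and HARS2 lie head to head on chromosome 5, and their transcripts overlap by 437 bases on opposite strands, so without a statement on strand some reads of this overlap cannot be assigned with certainty.

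RARS2 and CARS2 fell. RARS2, the arginine enzyme (GRCh38 chromosome 6, 87514378 to 87590003, minus strand, 20 exons), stood at 74.5 and 77.3 CPM in wild type against 45.0, 42.2 and 42.0 CPM in the knockout (-0.82 ± 0.09, adjusted p = 5.83e-05), with no overlap. CARS2, the cysteine enzyme, was at 80.9 and 67.6 CPM against 53.9, 59.0 and 53.5 CPM (-0.42 ± 0.10, adjusted p = 0.00669), and leaving out wild-type replicate 1 ended its call (-0.29, adjusted p = 0.124). IARS2 (-0.10 ± 0.08), NARS2 (-0.16 ± 0.09) and TARS2 (0.13 ± 0.10) did not pass.

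For each amino acid, the cytosolic enzyme was then set against its mitochondrial partner within the same library, which removes the scaling between libraries. Both partners were tested for 13 of the 17 pairs listed. The ratio of cytosolic to mitochondrial counts was lower in all knockout libraries than in both wild-type libraries for 12 pairs, and higher for the pair of RARS and RARS2. EPRS enters 2 of these pairs, with EARS2 and with PARS2. The pairs share their libraries and were chosen with results known, so this count carries no test. Among single genes, 76.4% of all those tested separated the genotypes in either direction. The share among ratios of other gene pairs was not computed.

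The largest differences were in the pairs for tryptophan, methionine and proline. WARS had 69.2 and 64.5 times the counts of WARS2 in wild type against 10.9, 9.40 and 9.64 times in the knockout. MARS had 38.5 and 37.9 times the counts of MARS2 in wild type against 6.02, 5.99 and 6.33 times in the knockout. EPRS had 756 and 549 times the counts of PARS2 in wild type against 125, 99.9 and 119 times in the knockout. In each pair the cytosolic gene fell and the mitochondrial gene rose, and their log2 fold changes differed by 2.75, 2.64 and 2.48.

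At the other end, HARS and HARS2 both rose, and their ratio moved only from 5.68 and 6.06 to 4.70, 4.89 and 5.18. RARS had 3.66 and 3.37 times the counts of RARS2 in wild type against 7.62, 7.10 and 8.04 times in the knockout, the reverse of the other pairs. No run of 28 bases, the shortest footprint length cut from the gel per the labels' protocols, was shared between the coding sequences of any of the 13 pairs.

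**Figure D4:**
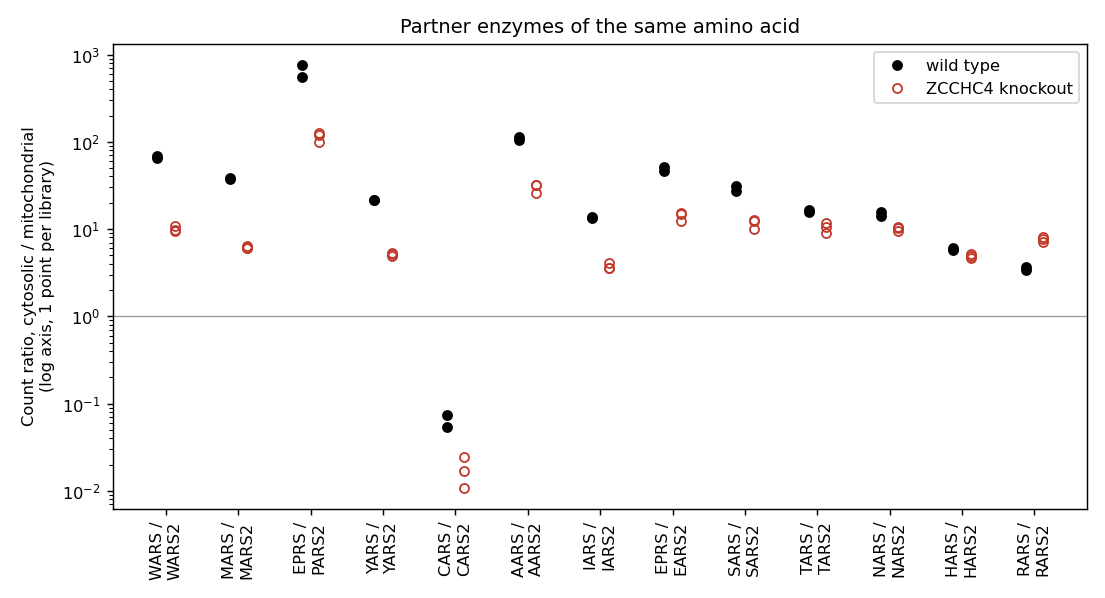
Ratio of cytosolic to mitochondrial footprint counts (vertical axis, log axis) for the 13 amino acid pairs with both partners tested, 1 point per library, filled for wild type and open for the knockout. The knockout points lie below the wild-type points in 12 pairs and above them for RARS and RARS2.

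Other genes that act in tRNA charging or on charged tRNAs were also counted. Among 21 tested rows of such genes there were 8 falls (38.1%), 7 rises (33.3%) and 6 without a call, near the 29.8% and 30.2% over all genes. Their log2 fold changes ran from -2.32 to 0.66 around a median of 0.03, and no rise reached 2-fold. The falls of at least 2-fold were in AARSD1, PSTK and DTD1, 3 of the 21 rows, against 13.1% of all genes. AARSD1, which removes amino acids wrongly joined to alanine tRNA, fell from 6.73 and 7.09 CPM to 1.65, 1.42 and 1.08 CPM (-2.32 ± 0.25, adjusted p = 6.37e-05). DTD1, which removes D-amino acids from tRNA, fell from 185 and 172 CPM to 86.4, 84.4 and 89.5 CPM (-1.04 ± 0.08, adjusted p = 7.61e-06). PSTK, a kinase on the path to selenocysteine tRNA, fell from 6.04 and 5.79 CPM to 2.49, 3.78 and 2.61 CPM (-1.04 ± 0.26, adjusted p = 0.00692), a call lost without wild-type replicate 1 (0.0679).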

How the data were processed

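Footprint libraries of wild-type (n = 2) and ZCCHC4 knockout (n = 3) HAP1 cells were grouped by their titles. The authors deposited raw counts per transcript and symbol. Per the submitters' processing notes, Bowtie and hg38 were used. For the counting tool, strand, rRNA removal and multiply mapped reads, settings were not given in the sources used here. The header stood 1 cell to the left of the values, and columns were assigned by name. Transcripts were matched to GENCODE release 29 (13533 of 13638 rows) for positions and coding lengths, and promoters to RefSeq.

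Counts were tested in R 4.3.3 with edgeR 4.0.16 (TMM; filterByExpr, minimum count 10; glmQLFit, then glmQLFTest; genotype only; Benjamini-Hochberg adjusted p under 0.05 over 11205 rows). The SE is the log2 fold change divided by the square root of F. The procedure was run on simulated counts in which 200 of 11205 genes were changed, far fewer than the 60.0% called in the data. It recovered 14% of 1.25-fold, 52% of 1.5-fold, 68% of 2-fold and 94% of 4-fold changes, with 9 false calls. A gene without a call can therefore still hold a change, at times of 2-fold or more. Members, lists and the naming rule were chosen with earlier results of these data known. Values per library are given for members changed at least 2-fold or against their class, GARS, KARS, the scaffold proteins and the 3 most different pairs. Alternatives were other scalings and filters, DESeq2 1.42.0, a replicate block, summed libraries, left-out libraries and a spline on gene properties.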

Additional observations from a re-analysis of the deposited data

How the results depend on the processing

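The falls of the cytosolic enzymes kept to 13 to 15 in the alternatives run with a test, and all tested enzymes on the ATF4 list were called lower in each (12, or 11 where a mean count of at least 50 leaves out CARS). The rises depended more on the settings. With library totals only, 1 cytosolic enzyme was called higher (also 1 among those outside the ATF4 list), 5 mitochondrial enzymes higher and 4 lower, and 2 scaffold proteins lower; the medians were -1.14 for the cytosolic and 0.18 for the mitochondrial class, and TARS2 turned to -0.09. The cytosolic median was -0.98 with upper-quartile scaling, -1.15 after a spline fit (coding length, GC, level) (EIF2AK4 turned to 0.16 there), and -0.77 with no filter, which adds the second row of CARS; EEF1E1 then stood at 0.01. With near-identical libraries summed, which leaves 3 samples, 1 cytosolic enzyme rose, and among those outside the list 1 rose and 1 fell; 4 mitochondrial enzymes rose and 1 fell; edgeR called 0 scaffold proteins lower, also 0 at an unadjusted p under 0.05, while DESeq2, run on all 5 libraries only, called 1. Leaving out each library in turn gave 1 to 4 cytosolic rises (the same 1 to 4 outside the list), 4 to 8 mitochondrial rises, 1 to 2 mitochondrial falls and 0 to 1 scaffold falls by edgeR (1 at an unadjusted p under 0.05), and EEF1E1 turned to 0.02 without wild-type replicate 2 or knockout replicate 2. Without a wild-type library the lone wild-type sample is assumed to vary like the knockout. With the replicate number as a block, 2 cytosolic enzymes rose, both outside the list (HARS and RARS lost their calls, adjusted p = 0.0763 and 0.0839), and the count of all genes called was 3026 lower and 3068 higher; same-numbered libraries did not deviate together (correlations -0.0507 and -0.0493), so the numbers were not taken to pair them. Over the members and the alternatives with a test, 404 values kept their side of the threshold, 40 lost a call, 6 gained one and 4 changed sign, those of EEF1E1 and TARS2, which had no call. In the spline fit, which has no test, 23 member values moved by more than their SE and 12 did not. PARS2 rests on 15 and 19 wild-type counts, and CARS on 17 to 27 counts in each library.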
